A study of Homo sapiens with 6 samples.

Results

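The genes described here encode heat shock proteins, their J-domain partners and their regulators. Members were the protein-coding genes of the RefSeq gene table of hg38 on chromosomes 1 to 22 and X whose symbol begins with HSPA, HSPB, HSPD, HSPE, HSPH, HSP90, DNAJA, DNAJB, DNAJC, HSF, BAG or CCT. This gave 99 of 19817 genes. The rule also takes 8 genes outside the core families: the read-through genes DNAJC25-GNG10 and HSPE1-MOB4, the genes HSF2BP and HSPBAP1 for proteins that bind a family member, and the X-linked HSFX1, HSFX2, HSFX3 and HSFX4. HSPBP1, an HSP70-binding nucleotide exchange factor and not a small heat shock protein, is taken by the HSPB prefix and was unmarked. DNA G-quadruplexes (G4s) are structures in which runs of guanines pair into stacked planes, and the antibody BG4 was used to pull them down from fixed chromatin for sequencing (ChIP-seq). The cells were U2OS, an established line from a human bone cancer. The Ctrl group was untreated and the HD group was exposed to 1,6-hexanediol, an alcohol known for dispersing liquid-like protein assemblies in cells. No dose or exposure time is given in the sources used here. Cells of both groups were fixed in 1% formaldehyde for 10 min, and glycine was used at 0.125 M. Each group had 2 ChIP libraries and 1 input library, and 1 peak list per group was used.

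Chaperones bind unfolded or partly folded proteins and either hold them or drive their folding. HSP70 proteins (HSPA and HSPH genes) cycle on and off their clients with ATP. J proteins (DNAJ genes) deliver clients to HSP70 and speed up its ATP hydrolysis, and BAG proteins release the nucleotide that ends the cycle. Chaperonins fold proteins inside a chamber, with HSPD1 and HSPE1 in mitochondria and the CCT ring in the cytosol. HSP90 proteins mature kinases and receptors, small heat shock proteins (HSPB genes) hold unfolded clients, and heat shock factors (HSF genes) activate many of these genes under stress.

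A gene was counted as marked when a peak lay within 1 kb of either of its ends. Fragment numbers at each summit, and the number expected there from input, were recovered from the peak caller's fold and p-value, and enrichment is their quotient. Where the expected number equals the mean coverage of the list, it is the genome-wide level, and the local input may be lower. Brackets after fragment numbers and enrichments hold 95% Poisson intervals, which cover counting error only and take the input as known. Mean coverage was 3.74 fragments per position in Ctrl and 5.51 in HD, a ratio of 1.47, so equal fragment numbers are not equal signal. No value per library was used, so nothing below was tested against the spread between libraries. All 2269 HD peak names carry the number of replicate 1, so the HD list may come from 1 library alone. Each value is a mean over many cells, so fewer cells with a structure and less structure per cell cannot be told apart. Peak lists hold no expression, so the identity of the cell line was not checked.

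Chaperone genes were marked more often than protein-coding genes as a whole in both lists, by count. The Ctrl list marked 20 of 99 members (20.2%, exact binomial interval 12.8 to 29.5) beside 10.9% of all protein-coding genes. The HD list marked 18 members (18.2%, 11.1 to 27.2) beside 8.11%. The binomial intervals treat genes as independent and hold no spread between libraries, so they do not test members against all genes. Genes that share a peak are not independent, and the 18 members marked in HD rested on 16 peaks. Both lists marked 10 members (5.2% of all genes), the Ctrl list alone marked 10 (5.7% of all genes) and the HD list alone marked 8 (2.92% of all genes). Either list marked 28 members, on 15 chromosomes, beside 13.8% of all genes. The Ctrl count depended on peaks that lie at several genes. When each peak was given only to the gene with the nearest end, 11 members (11.1%) remained marked in Ctrl beside 9.0% of all genes, and 12 (12.1%) in HD beside 6.58%. With the Ctrl list limited to its 2172 strongest peaks, as many as HD has on these chromosomes, it marked 13 members beside 7.83% of all genes, and the counts in Ctrl only and in HD only were then 7 (3.62% of all genes) and 12 (3.91%).

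Of the 20 members marked in Ctrl, 10 were also marked in HD (50%, 27.2 to 72.8), beside 47.7% of all Ctrl-marked genes. Of the 18 marked in HD, 10 were also marked in Ctrl (55.6%, 30.8 to 78.5), beside 64.1% of all HD-marked genes. Each interval includes the share of all marked genes. These intervals also treat genes as independent, so this is a description and not a test.

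The marked genes came from every family. Among chaperonin genes, 3 of 12 were marked in Ctrl and 6 of 12 in HD, but 3 of the HD genes share a single peak. J protein genes were marked at 7 of 45 in Ctrl and 6 of 45 in HD, with 2 in both lists. Genes named HSF were marked at 3 of 9 in Ctrl and 1 of 9 in HD. BAG genes had 2 of 6 and 1 of 6, and genes named HSPB had 1 of 9 and 2 of 9. HSP70 genes had 3 of 15 in Ctrl and 2 of 15 in HD, and HSP90 genes had 1 of 3 and 0 of 3. The counts per family are small, and no difference between families was tested.

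**Figure D1:**
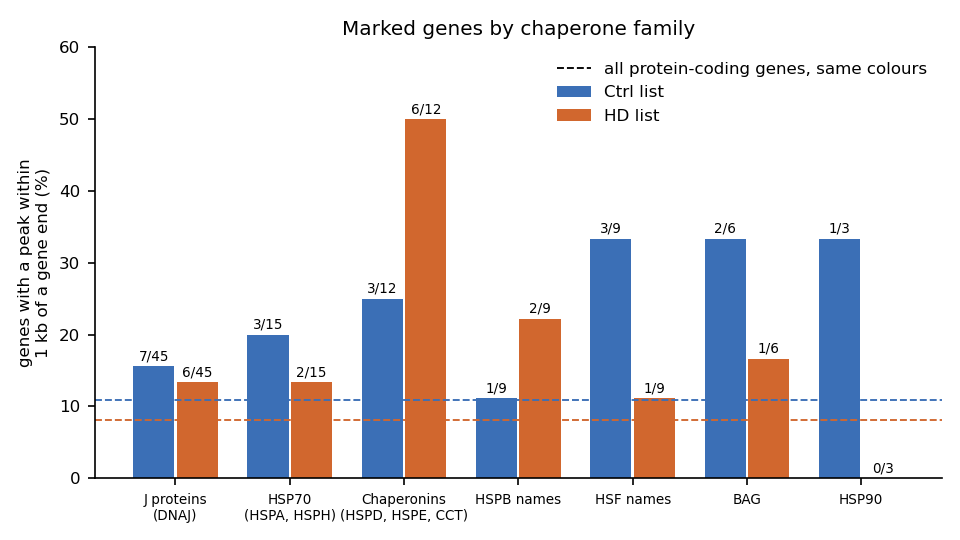
Share of genes (y axis, percent) with a peak within 1 kb of a gene end, by chaperone family (x axis), in the Ctrl and HD lists. Numbers over the bars are marked genes of all genes in the family, and dashed lines are the shares of all protein-coding genes, 10.9% in Ctrl and 8.11% in HD. Chaperonins have the highest bar in HD, with 6 of 12.

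HSPA8, the constitutive cytosolic HSP70, was marked in both lists at nearly equal enrichment. Its peak (gene ID 3312, chromosome 11, 123062240 to 123062433 in Ctrl) held 25 fragments (16.2 to 36.9) in Ctrl, an enrichment of 4.20 (2.72 to 6.21). In HD, the peak (123062238 to 123062642) held 29 fragments (19.4 to 41.6), an enrichment of 4.18 (2.80 to 6.00). The HD to Ctrl ratio of enrichment was 0.993 (exact conditional interval 0.561 to 1.77). At HSPA8, input gave 5.95 and 6.95 fragments in Ctrl and HD, the authors' fold was 3.71 and 3.64 and their −log10 q 4.5 and 3.39. Both summits lay inside the RefSeq gene span, at -245 bp and -186 bp from the nearest start in the promoter table. That promoter window, 250 bases before to 50 after the start, held 2 heat shock elements, the binding sequence of heat shock factors, and no G4 motif. The element was searched as GAA, TTC and GAA, or as TTC, GAA and TTC, with 2 bases of any kind (NN) between units. These forms are each other's reverse complement, so a match lies on both strands. The window is shown because both lists have a peak over it, with the heat shock elements in capitals (RefSeq, GRCh38.p14, chr11:123062087-123062386, minus strand, 5′ to 3′).
HSPA8: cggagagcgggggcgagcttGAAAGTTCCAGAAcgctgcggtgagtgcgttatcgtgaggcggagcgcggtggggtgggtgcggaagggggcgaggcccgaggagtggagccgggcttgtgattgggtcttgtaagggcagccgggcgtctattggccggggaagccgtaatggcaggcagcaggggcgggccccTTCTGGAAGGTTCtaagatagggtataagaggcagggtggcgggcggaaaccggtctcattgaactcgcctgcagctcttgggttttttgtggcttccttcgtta
The peaks covered 147 and 149 bases of this window in Ctrl and HD. They included the upstream element and not the one nearer the start.

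HSPA13, an HSP70-like ATPase of microsomes, was the other HSPA gene marked in both lists. It held 22 fragments (13.8 to 33.3) in Ctrl, an enrichment of 3.40 (2.13 to 5.14), at chromosome 21, 14383112 to 14383481. In HD it held 28 (18.6 to 40.5), an enrichment of 5.0 (3.32 to 7.23), at 14383133 to 14383438. The ratio of 1.47 (0.812 to 2.70) was the highest of the 10 members in both lists, and its interval included 1. At HSPA13, input gave 6.47 and 5.6 fragments in Ctrl and HD, the authors' fold was 3.06 and 4.2 and their −log10 q 2.38 and 4.79. HSPH1, the HSP110 nucleotide exchange factor of HSP70, was marked in Ctrl only. Its peak (gene ID 10808, chromosome 13, 31161936 to 31162132) held 21 fragments (13 to 32.1), an enrichment of 5.62 (3.48 to 8.59), with the summit 333 bp downstream of the start. At HSPH1, the expected number was the genome-wide level of 3.74 fragments, the authors' fold was 4.58 and their −log10 q 5.15. The nearest HD peak was 12980 kb away.

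The stress-inducible HSP70 genes had no peak nearby. HSPA1A and HSPA1B lay 2410 kb and 2398 kb from the nearest Ctrl peak and 1762 kb and 1750 kb from the nearest HD peak. These are near-identical copies, and no source used here says how reads that match both were treated, so their lack of a call is uncertain. The distance was not particular to them. HSPA1L and BAG6, close by on chromosome 6, lay 2413 kb and 2575 kb from the nearest Ctrl peak. Their nearest HD peak was 1765 kb and 1928 kb away. Why this stretch held no peak was not tested, so the lack of a call at these neighbours is uncertain too. HSPA6, strictly stress-inducible, lay 54.7 kb and 54.9 kb from the nearest peaks. HSPA9 and HSPA4 were also unmarked, as were HSPA1L, HSPA2, HSPA4L, HSPA12A, HSPA12B and HSPA14. HSPA5, the HSP70 of the endoplasmic reticulum, had an HD peak inside the gene, 1.88 kb from its end and so just outside the window. It held 100 fragments against 54.6 from input, an enrichment of 1.83 (1.49 to 2.23), and the input there was 9.90 times the mean coverage.

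The mitochondrial chaperonin genes were marked in HD only. HSPD1, the HSP60 subunit, and HSPE1, its HSP10 lid, stand head to head, and 1 HD peak served both and the read-through gene HSPE1-MOB4. The peak (chromosome 2, 197499894 to 197500299) held 33 fragments (22.7 to 46.3), an enrichment of 4.95 (3.41 to 6.95). Its summit lay 252 bp inside HSPD1 (gene ID 3329) from the gene's upper end and 357 bp from the start of HSPE1 (gene ID 3336). At HSPD1 and HSPE1, input gave 6.67 fragments, the authors' fold was 4.27 and their −log10 q 5.49. The nearest Ctrl peak was 15.6 kb away, at an end of MOB4 and inside the read-through gene. HSPD1 has 2 RefSeq starts, and the window of the inner start held 2 G4 motifs, both under the HD peak and the closer one centred 31 bp from its summit. A G4 motif is here 4 runs of at least 3 G, joined by 1 to 7 bases of any kind, searched on both strands. The window is shown with the G4 motifs in capitals (chr2:197499791-197500090, minus strand).
HSPD1: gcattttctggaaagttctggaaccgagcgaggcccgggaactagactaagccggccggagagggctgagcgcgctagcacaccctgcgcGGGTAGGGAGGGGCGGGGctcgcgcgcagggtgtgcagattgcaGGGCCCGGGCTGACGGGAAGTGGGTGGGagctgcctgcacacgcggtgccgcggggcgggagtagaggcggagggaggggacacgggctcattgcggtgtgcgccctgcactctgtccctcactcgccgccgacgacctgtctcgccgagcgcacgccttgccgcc
The same window holds 2 overlapping heat shock elements at its 5′ end. Besides HSPD1 and HSPA8, windows with a heat shock element were found at DNAJA1, DNAJB6, HSP90AA1, HSP90AB1 and HSPA6. Of 88 members with a RefSeq promoter window 7 held one (7.95%), beside 0.538% of all protein-coding genes with a window.

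The cytosolic chaperonin was marked at 3 of its genes, CCT6A, CCT7 and CCT8, in both lists. CCT8 had 29 fragments (19.4 to 41.6) in Ctrl and 45 (32.8 to 60.2) in HD, enrichments of 4.48 (3.0 to 6.43) and 5.18 (3.78 to 6.94). The CCT8 peaks (chromosome 21) spanned 29073435 to 29073912 in Ctrl and 29073594 to 29073946 in HD. At CCT8, input gave 6.47 and 8.68 fragments in Ctrl and HD, the authors' fold was 3.98 and 4.6 and their −log10 q 5.62 and 9.12. Both peaks covered the whole promoter window, which held no G4 motif. CCT6A had 34 (23.5 to 47.5) and 39 (27.7 to 53.3) fragments, enrichments of 6.30 (4.36 to 8.81) and 5.03 (3.57 to 6.87). The CCT6A peaks (chromosome 7) spanned 56051386 to 56051766 in Ctrl and 56051452 to 56051725 in HD. At CCT6A, input gave 5.4 and 7.76 fragments in Ctrl and HD, the authors' fold was 5.42 and 4.41 and their −log10 q 10.9 and 6.85. An end of PSPH, an enzyme of serine synthesis, lay 112 bp from the Ctrl summit. CCT7 had 23 (14.6 to 34.5) and 32 (21.9 to 45.2) fragments, enrichments of 4.92 (3.12 to 7.39) and 3.81 (2.61 to 5.38). The CCT7 peaks (chromosome 2) spanned 73233267 to 73233550 in Ctrl and 73233240 to 73233533 in HD. At CCT7, input gave 4.67 and 8.4 fragments in Ctrl and HD, the authors' fold was 4.19 and 3.41 and their −log10 q 5.0 and 3.26. The CCT7 summits lay at -851 bp and -829 bp from the CCT7 start, but 173 bp and 195 bp from the start of PRADC1. The ratios of enrichment of CCT8, CCT6A and CCT7 were 1.16 (0.710 to 1.91), 0.798 (0.491 to 1.30) and 0.774 (0.439 to 1.39), all with intervals that included 1. CCT2, CCT3, CCT4, CCT5, CCT6B and CCT8L2 were unmarked.

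J protein genes held the 2 highest enrichments among the members, both in the Ctrl list. DNAJC19, which acts in protein import into mitochondria, had 34 fragments (23.5 to 47.5) in Ctrl, an enrichment of 9.10 (6.30 to 12.7). Its fold stood at percentile 98.6 of the Ctrl list, and the summit lay 1 bp from a RefSeq start (gene ID 131118, peak on chromosome 3, 180989611 to 180989893). At DNAJC19, the expected number was the genome-wide level of 3.74 fragments, the authors' fold was 7.28 and their −log10 q 15.2. The nearest HD peak lay 1427 kb away. The window is shown because the member peak with the highest enrichment lies over a promoter with no G4 motif, so it carries no capitals (chr3:180989725-180990024, minus strand, the start nearest the summit).
DNAJC19: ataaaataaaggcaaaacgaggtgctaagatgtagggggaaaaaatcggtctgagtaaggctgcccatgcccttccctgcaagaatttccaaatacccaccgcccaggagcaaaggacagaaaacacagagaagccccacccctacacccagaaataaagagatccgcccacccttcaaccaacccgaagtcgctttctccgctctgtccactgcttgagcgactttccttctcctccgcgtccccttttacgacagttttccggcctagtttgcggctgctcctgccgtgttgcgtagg
None of the 3 RefSeq windows of DNAJC19 held a G4 motif. Taking each gene's window of highest GC content, DNAJC19 had 56.3%, below the median of 64.7% over all protein-coding genes with a window.

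DNAJB11 and DNAJB9, both J proteins of the endoplasmic reticulum that work with HSPA5, were marked in Ctrl only. DNAJB11 had 41 fragments (29.4 to 55.6), an enrichment of 7.38 (5.30 to 10.0), at chromosome 3, 186570356 to 186570721. At DNAJB11, input gave 5.56 fragments, the authors' fold was 6.34 and their −log10 q 15.4. DNAJB9 had 27 fragments (17.8 to 39.3), an enrichment of 6.25 (4.12 to 9.09), at chromosome 7, 108569599 to 108569931. At DNAJB9, input gave 4.32 fragments, the authors' fold was 5.2 and their −log10 q 8.46. Each summit lay closer to an end of a neighbour than to the J protein gene. TBCCD1 was 43 bp and DNAJB11 134 bp from the one summit, THAP5 was 5 bp and DNAJB9 111 bp from the other. DNAJC7, a J protein that binds both HSP70 and HSP90, had 28 fragments (18.6 to 40.5) in Ctrl, an enrichment of 4.90 (3.25 to 7.08), in a peak shared with NKIRAS2. DNAJB12, a membrane J protein of the endoplasmic reticulum, had 24 Ctrl fragments (15.4 to 35.7), an enrichment of 5.53 (3.54 to 8.23), at its 3′ end, with the peak 563 bp beyond the gene. The DNAJB12 peak (chromosome 10) spanned 72332042 to 72332300 in Ctrl. At DNAJB12, input gave 4.34 fragments, the authors' fold was 4.63 and their −log10 q 6.21.

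DNAJB12 was counted as Ctrl only, yet an overlapping pair of peaks lay inside the gene in both lists, just outside the 1 kb window. These peaks lay 1988 bp (Ctrl) and 2105 bp (HD) from the gene end and had 20 and 35 fragments, enrichments of 4.34 (2.65 to 6.70) and 3.57 (2.49 to 4.97). Just inside the window were the peaks of HSPB6, 959 bp from the gene in Ctrl and 900 bp in HD.

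DNAJB2 and DNAJC17 were the J protein genes marked in both lists. DNAJB2, a neuronal J protein, had 22 fragments (13.8 to 33.3) in Ctrl and 40 (28.6 to 54.5) in HD, enrichments of 4.08 (2.56 to 6.17) and 4.08 (2.92 to 5.56). DNAJC17 had 25 fragments (16.2 to 36.9) in each list, enrichments of 6.43 (4.16 to 9.49) and 4.54 (2.94 to 6.70). The HD to Ctrl ratios were 1.00 (0.581 to 1.77) for DNAJB2 and 0.705 (0.389 to 1.28) for DNAJC17. The DNAJB2 peaks (chromosome 2) spanned 219279091 to 219279347 in Ctrl and 219279187 to 219279393 in HD. At DNAJB2, input gave 5.4 and 9.8 fragments in Ctrl and HD, the authors' fold was 3.56 and 3.7 and their −log10 q 3.45 and 5.37. The DNAJC17 peaks (chromosome 15) spanned 40807439 to 40807778 in Ctrl and 40807415 to 40807732 in HD. At DNAJC17, input gave 3.89 fragments in Ctrl, and the expected number in HD was the genome-wide level of 5.51. The authors' fold there was 5.25 and 3.82 in Ctrl and HD and their −log10 q 7.82 and 3.0. Their promoters, and that of HSPA13, are shown because a G4 motif lay under a peak in both lists. The motif is in capitals, and capital C runs mean that its G runs are on the opposite strand (chr2:219279116-219279415, plus strand, chr15:40807424-40807723 and chr21:14383097-14383396, both minus strand).
DNAJB2: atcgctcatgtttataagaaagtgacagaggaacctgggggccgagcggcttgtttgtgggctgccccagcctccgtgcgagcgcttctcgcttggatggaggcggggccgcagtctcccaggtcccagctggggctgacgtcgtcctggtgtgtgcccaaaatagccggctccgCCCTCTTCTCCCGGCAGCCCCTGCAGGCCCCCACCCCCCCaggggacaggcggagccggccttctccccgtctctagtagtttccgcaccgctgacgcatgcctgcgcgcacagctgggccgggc
DNAJC17: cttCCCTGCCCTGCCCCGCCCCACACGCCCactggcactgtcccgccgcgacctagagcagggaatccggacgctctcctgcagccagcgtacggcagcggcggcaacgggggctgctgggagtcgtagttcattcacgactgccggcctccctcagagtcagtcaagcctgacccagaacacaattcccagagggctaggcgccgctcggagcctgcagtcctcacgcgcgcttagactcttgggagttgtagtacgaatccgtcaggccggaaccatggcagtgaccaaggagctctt
HSPA13: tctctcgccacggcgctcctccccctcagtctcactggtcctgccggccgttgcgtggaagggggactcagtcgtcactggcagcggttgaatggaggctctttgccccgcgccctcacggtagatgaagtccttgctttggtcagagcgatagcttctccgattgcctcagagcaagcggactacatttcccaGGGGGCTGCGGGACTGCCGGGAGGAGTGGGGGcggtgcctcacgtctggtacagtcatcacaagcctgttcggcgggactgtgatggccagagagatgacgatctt
The motif centre lay 21 bp and 28 bp from the Ctrl and HD summits at DNAJB2, 126 bp and 172 bp at DNAJC17, and 82 bp and 112 bp at HSPA13.

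DNAJA1, DNAJC21, DNAJB5 and DNAJC13 were marked in HD only. DNAJA1, a major cytosolic J protein, had 34 fragments (23.5 to 47.5), an enrichment of 5.40 (3.74 to 7.54), at chromosome 9, 33025075 to 33025288. At DNAJA1, input gave 6.3 fragments, the authors' fold was 4.6 and their −log10 q 6.61. The end of APTX, a DNA repair gene, lay 64 bp from this summit and the DNAJA1 start 89 bp. DNAJC21, a ribosome biogenesis factor, had 31 fragments (21.1 to 44.0), an enrichment of 5.05 (3.43 to 7.17), at chromosome 5, 34929310 to 34929597. At DNAJC21, input gave 6.13 fragments, the authors' fold was 4.3 and their −log10 q 5.46. Its promoter held a G4 motif on the opposite strand, 78 bp from the summit (chr5:34929309-34929608, plus strand).
DNAJC21: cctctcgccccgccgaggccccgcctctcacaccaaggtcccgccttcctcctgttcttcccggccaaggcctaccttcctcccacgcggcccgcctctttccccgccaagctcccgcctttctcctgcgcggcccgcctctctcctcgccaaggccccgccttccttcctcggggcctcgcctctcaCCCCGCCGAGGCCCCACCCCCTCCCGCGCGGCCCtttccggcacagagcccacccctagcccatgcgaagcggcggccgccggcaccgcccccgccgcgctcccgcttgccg
DNAJB5 had 34 fragments (23.5 to 47.5), an enrichment of 3.47 (2.40 to 4.85), at chromosome 9, 34989466 to 34989737. At DNAJB5, input gave 9.8 fragments, the authors' fold was 3.16 and their −log10 q 3.24. DNAJC13, which acts on endosomes, had 23 fragments, an enrichment of 3.29 (2.08 to 4.93), and its −log10 q of 1.35 put it at rank 2263 of 2269. A G4 motif lay 72 bp from the DNAJC13 summit.

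Of the heat shock factors, HSF1 was marked in both lists and HSF2 and HSF4 in Ctrl only. HSF2 had 28 Ctrl fragments (18.6 to 40.5), an enrichment of 7.24 (4.81 to 10.5), at chromosome 6, 122399397 to 122399648, with the summit 33 bp upstream of a start. For this peak 2 whole numbers of fragments matched the deposited p-value, and the closer was taken. At HSF2, input gave 3.87 fragments, the authors' fold was 5.88 and their −log10 q 9.47. Its promoter is shown because both G4 motifs in it lay under the Ctrl peak, 1 on each strand, and the nearest HD peak was 13890 kb away (chr6:122399402-122399701, plus strand).
HSF2: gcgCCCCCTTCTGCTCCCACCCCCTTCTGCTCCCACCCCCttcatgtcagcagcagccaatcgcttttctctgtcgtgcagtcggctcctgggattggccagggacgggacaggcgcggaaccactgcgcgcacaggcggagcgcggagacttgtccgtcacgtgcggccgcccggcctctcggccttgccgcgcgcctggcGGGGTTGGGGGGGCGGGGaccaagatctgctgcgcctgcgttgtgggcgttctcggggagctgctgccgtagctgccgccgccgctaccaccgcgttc
HSF4 had 22 Ctrl fragments, an enrichment of 4.65 (2.91 to 7.04), in a peak beyond its 3′ end. That summit lay 117 bp from the start of NOL3, an inhibitor of cell death, and 5910 bp from the nearest HSF4 start.

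HSF1, the main activator of the heat shock response, had 50 fragments (37.1 to 65.9) in Ctrl, an enrichment of 6.94 (5.15 to 9.15), at chromosome 8, 144291352 to 144291631. In HD it had 56 (42.3 to 72.7), an enrichment of 3.08 (2.33 to 4.0), at 144291389 to 144291647. At HSF1, input gave 7.2 and 18.2 fragments in Ctrl and HD, the authors' fold was 6.17 and 2.93 and their −log10 q 19.0 and 5.35. The ratio of 0.443 (0.297 to 0.663) was the lowest of the 10 and the only one whose interval excluded 1. Of all 838 gene-end peaks found in both lists, 101 had such an interval. The input moved with this value: it was 1.93 times the mean coverage at HSF1 in Ctrl and 3.30 times in HD. Scaled by mean coverage alone, without the local input, the ratio was 0.760 (0.509 to 1.14). The part of the input in the difference was not tested. BOP1, a ribosome biogenesis gene, shares this peak, and its end lay 28 bp from the Ctrl summit.

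BAG1, a nucleotide exchange factor of HSP70, was marked in both lists in the gap between it and CHMP5. It had 23 fragments (14.6 to 34.5) in Ctrl and 43 (31.1 to 57.9) in HD, enrichments of 3.99 (2.53 to 5.99) and 4.98 (3.61 to 6.71), a ratio of 1.25 (0.736 to 2.17). The BAG1 peaks (chromosome 9) spanned 33264641 to 33264993 in Ctrl and 33264660 to 33264996 in HD. At BAG1, input gave 5.76 and 8.63 fragments in Ctrl and HD, the authors' fold was 3.52 and 4.43 and their −log10 q 3.59 and 7.82. BAG2, which inhibits the ubiquitin ligase CHIP, had 25 Ctrl fragments, an enrichment of 2.57 (1.67 to 3.80), with a −log10 q of 1.38 near the bottom of the list. BAG3, BAG4, BAG5 and BAG6 were unmarked.

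HSPB1, the small heat shock protein HSP27, was marked in HD only and inside the gene. The peak (gene ID 3315, chromosome 7, 76303513 to 76303729) held 33 fragments (22.7 to 46.3), an enrichment of 4.36 (3.0 to 6.13). At HSPB1, input gave 7.56 fragments, the authors' fold was 3.84 and their −log10 q 4.55. Its summit lay 959 bp downstream of the start and 660 bp from the far end, and the G4 motif in the promoter window was not under the peak. The nearest Ctrl peak was 8.57 kb away. HSPB6 was marked in both lists, with 26 (17.0 to 38.1) and 28 (18.6 to 40.5) fragments, enrichments of 4.82 (3.15 to 7.06) and 4.35 (2.89 to 6.28), and a ratio of 0.902 (0.510 to 1.60). The HSPB6 peaks (chromosome 19) spanned 35757988 to 35758212 in Ctrl and 35757929 to 35758137 in HD. At HSPB6, input gave 5.4 and 6.44 fragments in Ctrl and HD, the authors' fold was 4.18 and 3.75 and their −log10 q 5.86 and 3.87. These peaks lay at PROSER3, whose start was 84 bp and 183 bp from the summits, while they stood at -1063 bp and -964 bp from the HSPB6 start.

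No HSP90 gene had a peak at its outermost start. HSP90AB1, the constitutive cytosolic HSP90, had a Ctrl peak at its 3′ end (gene ID 3326, chromosome 6, 44253289 to 44253644), inside the gene and 5679 bp from the nearest start. It held 144 fragments (121 to 170) against 87.4 from input, an enrichment of 1.65 (1.39 to 1.94). The input there was 23.4 times the mean coverage, and its fold was at percentile 2.62 of the Ctrl list. Input over 10 times the mean coverage was seen at 9 of 1811 gene-end peaks in Ctrl and 8 of 1318 in HD. The part of this high input in the call was not tested.

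HSP90AA1, the stress-inducible cytosolic HSP90, and DNAJB1, the main stress-inducible HSP40, were counted as unmarked, but Ctrl peaks lay over promoter windows of inner starts. The HSP90AA1 peak lay upstream of its inner start and did not reach it. RefSeq gives both genes an upstream start far from the inner ones, so the inner promoters are not at a gene end. At HSP90AA1 (gene ID 3320), the Ctrl peak on chromosome 14, 102087119 to 102087321, held 26 fragments against 4.01 from input, an enrichment of 6.48 (4.23 to 9.50). At DNAJB1 (gene ID 3337), Ctrl peaks on chromosome 19, 14518221 to 14518769 and 14529259 to 14529642, lay over separate starts. They held 24 and 20 fragments, enrichments of 6.42 (4.11 to 9.55) and 5.35 (3.27 to 8.26). The nearest HD peaks were 385 kb from an end of HSP90AA1 and 378 kb from an end of DNAJB1. These were the only 2 unmarked members with a peak over a RefSeq promoter window, and they were singled out after their values were seen. The HSP90AA1 window under the peak held a heat shock element, shown in capitals, and no G4 motif (chr14:102086995-102087294, minus strand).
HSP90AA1: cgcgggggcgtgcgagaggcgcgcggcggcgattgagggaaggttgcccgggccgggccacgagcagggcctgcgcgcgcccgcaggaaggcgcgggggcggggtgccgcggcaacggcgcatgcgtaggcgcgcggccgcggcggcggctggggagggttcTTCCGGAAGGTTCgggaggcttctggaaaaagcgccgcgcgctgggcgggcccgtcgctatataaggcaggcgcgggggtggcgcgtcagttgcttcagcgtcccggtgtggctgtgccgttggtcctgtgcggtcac
The peak covered 176 bases of this window, the element included.

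**Figure D2:**
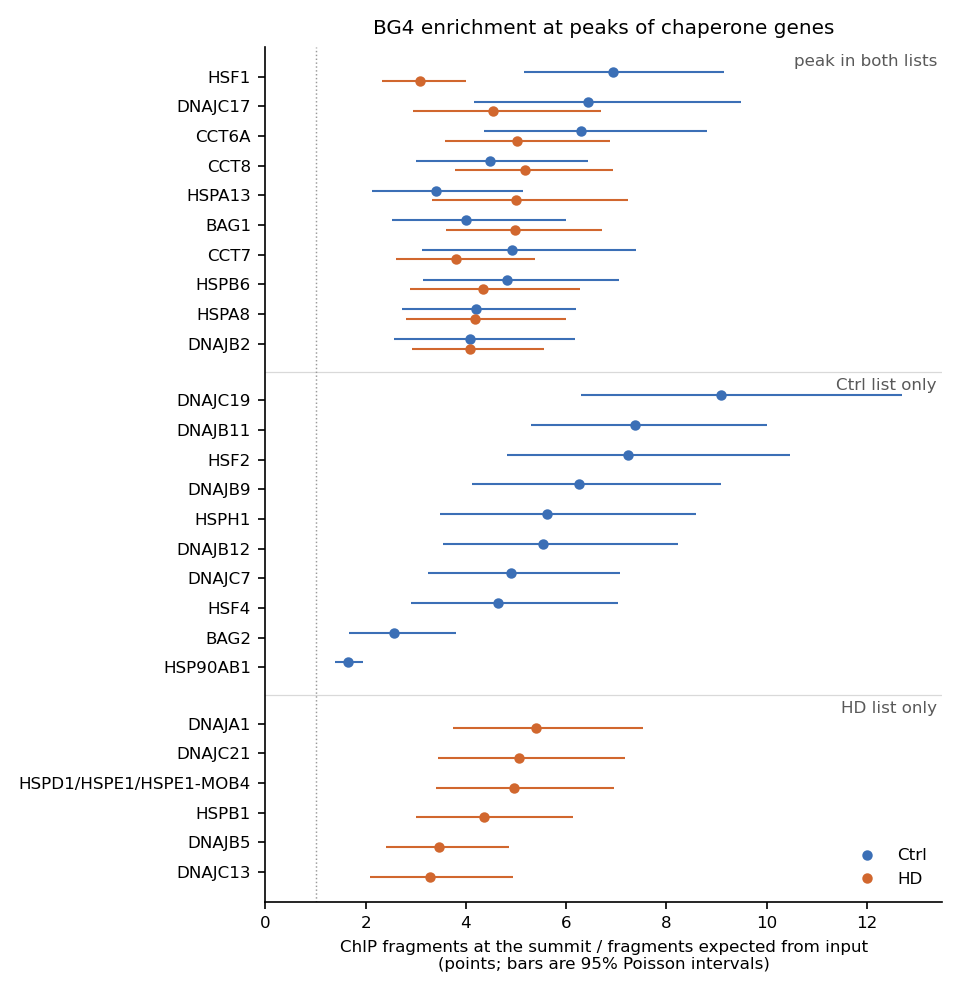
Enrichment (x axis, ChIP fragments at the summit over fragments expected from input) of each marked member's peak, with members in rows grouped by the lists that called them. Points are the values in Ctrl and HD, bars are 95% Poisson intervals and the dotted line is an enrichment of 1. Intervals overlap between the lists at 9 of the 10 members in both, the exception being HSF1 with 6.94 in Ctrl and 3.08 in HD.

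Across the 10 peaks found in both lists, the HD to Ctrl ratio of enrichment had a median of 0.947, with 4 above 1 and 6 below. Over all 838 gene-end peaks in both lists the median was 0.912, with quartiles of 0.754 and 1.11. The member ratios, from 0.443 to 1.47, lay within the range of all shared peaks, from 0.283 to 2.22, but not all lay between those quartiles.

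Member peaks in 1 list only were not weaker, by median, than those in both lists. The 10 Ctrl-only members had a median enrichment of 5.57, and the 10 members in both lists had a Ctrl median of 4.65. For 6 HD-only peaks the median was 4.66, beside an HD median of 4.44 for those in both. Where input was at the genome-wide level, the lowest enrichment called was 4.01 in Ctrl and 3.63 in HD. Of the 10 Ctrl-only peaks, 8 had an enrichment above that HD level, and for 4 of them (DNAJC19, DNAJB11, HSF2 and DNAJB9) the lower bound was above it too. Of the 6 HD-only peaks, 4 were above the Ctrl level. These medians and counts were not taken over all gene-end peaks, so they do not set members apart from other genes. Fragment numbers at sites without a call, and the input there, were not used here, so the lack of a peak is no measure of the signal there.

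**Figure D3:**
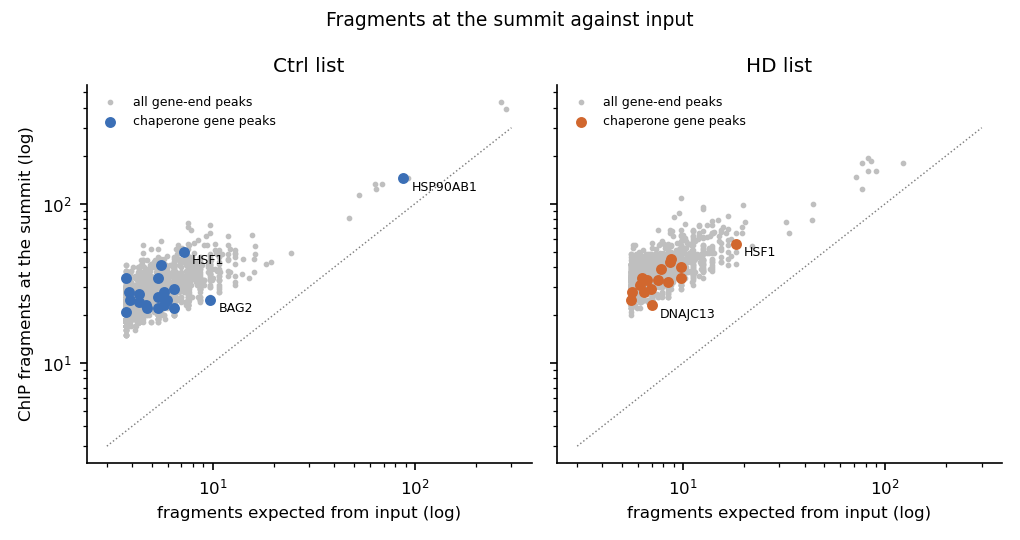
ChIP fragments at the summit (y axis, log scale) against fragments expected from input (x axis, log scale) for peaks within 1 kb of a protein-coding gene end, grey, and for the member peaks, coloured, in the Ctrl and HD lists. The dotted line marks equal numbers. HSP90AB1 stands at 144 fragments against 87.4 from input, and HSF1 moves to higher input in HD.

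Many member peaks lay at shared gene ends. In Ctrl, 11 of 20 member peaks were within 1 kb of the ends of 2 or more coding genes, and in HD 8 of 16. A peak at several genes can be reached through each of them, so the share was set beside all genes by counting each pair of a gene and a peak. Counted so, it was 11 of 20 pairs (55.0%) for members in Ctrl beside 36.0% of 2220 pairs for all protein-coding genes, and 10 of 18 (55.6%) in HD beside 37.1% of 1638. The HD pairs include 3 from the HSPD1 and HSPE1 peak. The gene partners were PRADC1, PSPH, BOP1, CHMP5, ZFYVE19 and PROSER3 in both lists, TBCCD1, SLC35B2, THAP5, NOL3 and NKIRAS2 in Ctrl, and APTX in HD, with HSPD1 and HSPE1 partners of each other. A peak at such a site cannot be given to 1 of the genes by position alone. Member peaks were otherwise of usual size, with medians of 281.5 bp (Ctrl) and 281 bp (HD) across, beside 267 bp and 271 bp for all gene-end peaks. Their median enrichment was 4.91 in Ctrl and 4.45 in HD, beside 5.33 and 4.91.

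**Figure D4:**
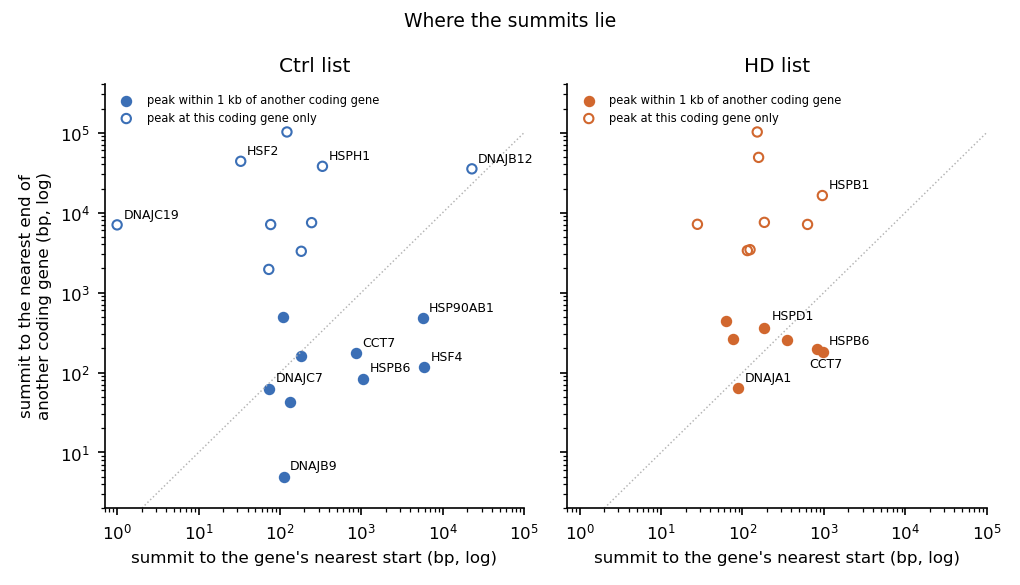
Distance from the peak summit to the nearest RefSeq start of the member (x axis, bp, log scale) and to the nearest end of another coding gene (y axis, bp, log scale), in the Ctrl and HD lists. Filled points are peaks within 1 kb of another coding gene and open points are the rest. HSF1 and CCT6A, which have no start in the promoter table, and the read-through gene HSPE1-MOB4 are not plotted. Points below the dotted line of equal distance, such as HSF4, HSPB6 and CCT7, are closer to the other gene.

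RefSeq promoter windows were found for 88 of 99 members. A G4 motif was present in 23 of these (26.1%), a smaller share than the 36.4% of 15812 protein-coding genes with a window. Among members with a window, it was present at 10 of 26 marked (38.5%) and 13 of 62 unmarked (21.0%), beside 43.1% of all marked and 35.2% of all unmarked genes. By list, it was present at 5 of 8 HD-only members, 2 of 10 Ctrl-only members and 3 of 8 members in both, beside 38.7%, 43.1% and 45.6% of all genes with those calls. At DNAJB5 and HSPB1, among the 5, the motif was not under the HD peak. The 8 HD-only members rested on 6 peaks. HSPE1 and HSPE1-MOB4, both among them, have the same window without a motif, which was counted for each gene. Ctrl peaks lay over the window of 14 members (15.9%, beside 10.8% of all genes), and for 4 of them a G4 motif in the window was under the peak. HD peaks lay over the window of 12 members (13.6%, beside 7.84%), with a motif under the peak for 6. Motifs under a peak were not counted over all genes, so these counts set neither members nor lists apart. The median GC content, taking each gene's highest window, was 65.0% for members and 64.7% for all genes. A motif is a match of letters, and its absence from a window says only that these letters are not there.

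The 71 unmarked members had their nearest Ctrl peak at a median of 222 kb and their nearest HD peak at 561 kb. Within 5 kb of an end, 3 had a Ctrl peak and 5 an HD peak. The same distances were not taken over all unmarked genes, and the HD list holds fewer peaks than the Ctrl list. The DNAJC6 end lay 4.36 kb from a Ctrl and 4.13 kb from an HD peak at LEPR and LEPROT, and HSPBP1 lay 2.89 kb and 2.92 kb from peaks at PPP6R1. DNAJB14 had an HD peak at 3.71 kb, at the histone gene H2AZ1, and DNAJB7 an HD peak at 2.41 kb, at ST13 and XPNPEP3. Inside genes, HSF2BP held 2 Ctrl peaks of 23 and 22 fragments, and marked DNAJC17 held another Ctrl peak of 22 fragments.

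Other genes of the folding machinery were counted in the same way. Of a list of 63 co-chaperones, folding enzymes, prefoldin subunits and proteases, 61 were matched to the table. Ctrl peaks marked 10 (16.4%, exact binomial interval 8.15 to 28.1) beside 10.9% of all genes. HD peaks marked 5 (8.20%, 2.72 to 18.1) beside 8.11%. Both intervals include the share of all genes, but they treat genes as independent and are not a test. VCP, an ATPase that extracts ubiquitinated proteins, was marked in both lists with 31 and 44 fragments, enrichments of 5.80 (3.94 to 8.23) and 5.24 (3.81 to 7.03). STIP1, which links HSP70 to HSP90, was also in both, with 24 and 26 fragments, enrichments of 5.72 (3.66 to 8.51) and 3.10 (2.02 to 4.54). TCP1, the CCT subunit whose symbol the rule does not take, was marked in Ctrl only with 26 fragments, an enrichment of 4.02 (2.62 to 5.88). CLPX, HSCB, SGTA, SGTB, P4HB and PDIA3 were also marked in Ctrl only, and ST13 and TXNL4A in HD only. At P4HB, as at HSP90AB1, the input was far above the mean coverage, at 24.8 times in Ctrl.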

How the data were processed

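BG4 ChIP-seq of U2OS cells was used, with 2 ChIP libraries and 1 input library per group. FastQC 0.11.9, Bowtie2 2.5.0, SAMtools, MACS2 2.2.7.1 and the build hg38 come from the submitters' processing notes. Settings, however, were not given in the sources used here. For each group, 1 peak list was deposited by the authors, of 3507 Ctrl and 2269 HD peaks, with a fold enrichment (ratio), −log10 p and −log10 q per peak. The score column deposited by the authors was not used. Input files were not analysed here, and depth per library is unknown.

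MACS2 writes fold as (pileup + 1) / (expectation + 1) and p as an upper Poisson tail. Repeated pairs gave a scale of 0.927 and 0.715 and a genome-wide expectation of 3.46 and 3.94. With these, 99.8% of Ctrl and 99.7% of HD peaks, and all member peaks, had a whole fragment number that gave their p to within 0.01 on the −log10 scale. Mean coverage is expectation over scale, and intervals are at 95%. The steps were tested on simulated lists made with the same formulas. This checks the code and not whether the formulas hold for the deposited lists.

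Genes came from a RefSeq table of GRCh38.p14, the assembly of hg38, without scaffolds, which lists ends but not exons. Strands, starts and sequences came from a RefSeq promoter table that held 88 members. No tests were run, since there is 1 list per group. The members and lists were chosen with earlier results of these data known. Every marked member is named, with full values for those in both lists, the 5 with the highest −log10 q in Ctrl only and in HD only, and HSPA8, HSPD1, HSPE1, HSPH1 and HSPB1. Alternatives were other windows, −log10 q of at least 3, equal list lengths, 1 gene per peak, the summit in place of the peak, fewer names, and, chosen after seeing the data, promoter windows and coverage scaling. The co-chaperone counts include 1 gene whose values are not reported here. Python 3.11.15 and scipy 1.17.1 were used.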

Additional observations from a re-analysis of the deposited data

How the results depend on the processing

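Windows of 500 bp and 2 kb, −log10 q of at least 3, the summit in place of the peak, and the removal of 8 genes outside the core families kept all 5 counts of marked members within 1.5 times their reported values. With the Ctrl list limited to its 2172 strongest peaks, as many as HD has, 13 members were marked in Ctrl (7.83% of all genes). Then 6 were marked in both lists (4.2% of all genes), 7 in Ctrl only (3.62%) and 12 in HD only (3.91%). This turns the order of the last 2 counts. With each peak given to 1 gene, 11 members were marked in Ctrl, 5 in both lists and 6 in Ctrl only, since fewer genes can hold a shared peak. These were 11.1%, 5.05% and 6.06% of members, beside 9.0%, 4.03% and 4.97% of all genes. With promoter windows, chosen after seeing the data, 6 of 88 members were marked in both lists (6.82%), beside 5.02% of all genes with a window. The median HD to Ctrl enrichment of the 10 shared peaks was 0.947, the same with at least 50% overlap, 0.939 from the authors' fold and 0.825 with coverage scaling alone, the last also chosen after seeing the data. No paired analysis was possible because each group has 1 peak list and no value per library, and for the same reason no replicate could be left out. Fragment numbers of 21 to 56 at all member peaks but that of HSP90AB1 leave wide intervals.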
